A study of Homo sapiens with 32 samples.

Results

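The SLC25 carrier genes encode the mitochondrial carrier family, and they were taken here as all protein-coding RefSeq genes whose symbol is SLC25A followed by digits, together with UCP2 and UCP3. This rule gave 50 of 20050 protein-coding genes. A peak of N6-methyladenosine (m6A), the commonest internal methylation of messenger RNA, belonged to a carrier gene when its summit lay in the hg38 span of that gene, on either strand. Same-strand peaks of the 4 libraries that overlapped by 1 bp or more were joined to loci, and 100 of 66409 loci lay in carrier genes. The rule uses gene symbols and no measured value, but it was chosen with earlier results of these data known.

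Mitochondrial carriers are small membrane proteins built from 3 repeats of a pair of membrane-spanning helices, and most sit in the inner mitochondrial membrane. They exchange nucleotides, phosphate, amino acids, carboxylates, cofactors and ions between the matrix and the cytosol, so that respiration, biosynthesis and iron use depend on them. They are encoded in the nucleus and translated in the cytosol, and most reach the inner membrane through a dedicated translocase. m6A is written on nascent RNA mainly by a complex whose catalytic subunit is METTL3, usually near the end of the coding sequence and in long exons.

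The series profiled m6A by antibody enrichment and sequencing (MeRIP-seq) in the chromatin-associated RNA of A375, an established line of human melanoma cells. The 2 control libraries came from cells labelled WT that received a control hairpin RNA (shControl), and the 2 knockdown libraries from cells labelled METTL3 knockdown that received a hairpin RNA against METTL3 (shMETTL3). All 4 shared removal of ribosomal RNA, an added m6A spike-in and the same enrichment kit. Of 32 samples in 16 groups, those of the inputs, of FTO constructs, of the second knockdown set and of HEK293T cells were not used here. The lists ran to 45345 (control replicate 1), 47692 (control replicate 2), 44108 (knockdown replicate 1) and 42969 (knockdown replicate 2) peaks. The read depth behind them is unknown, and the labels do not say whether replicates were separate cultures, so p-values may measure only technical spread. METTL3 itself held 5 peaks in each list, which does not measure the amount of its RNA. Of 10 melanocyte lineage markers MITF, RAB27A and MC1R held peaks, and PMEL, MLANA, TYR, TYRP1, DCT, SOX10 and GPR143 held none. For markers of other cell types, the genes with a peak were 3 of 10 for keratinocytes, 3 of 10 for fibroblasts and 1 of 10 for leukocytes, and the part of such RNA in the results was not tested. FLG, a keratinocyte marker, had 11 loci in both knockdown lists. Of these 10 were knockdown-only, on both strands, against a share of 18.6% over all protein-coding genes. FLG also had 1 control-only locus, and all its loci also lay in the span of the gene CCDST. KRT10 had 1 knockdown-only locus, and KRT15 had 2 loci in control replicate 1 only.

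Carrier genes with a peak were more numerous in the knockdown lists than in the control lists. A peak was found in 22 carrier genes in control replicate 1, 19 in control replicate 2 and 28 in each knockdown replicate. The groups did not overlap, with 20.5 ± 2.12 genes in control and 28 ± 0 in knockdown (SD, n = 2 each), and the two-sided exact permutation p was 0.33, the lowest value possible with 2 libraries on each side. Among all protein-coding genes, a peak was held by 9266 and 9375 under the control hairpin and by 9464 and 9458 after knockdown.

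The number of peaks differed less than the number of genes. Peaks in carrier genes numbered 67 and 65 in control and 71 and 70 in knockdown, although the knockdown lists were shorter. The means were 66 ± 1.41 and 70.5 ± 0.707 (SD, n = 2 each; exact two-sided permutation p = 0.33). They covered 27896 and 29023 bp in control and 30088 and 30037 bp in knockdown (exact permutation p = 0.33), with mean peak widths of 416 and 447 bp against 424 and 429 bp. Without SLC25A24, which alone held 9 and 12 control peaks and 3 in each knockdown list, the mean was 55.5 ± 3.54 peaks in control and 67.5 ± 0.707 in knockdown (SD, n = 2 each), a difference of 12 in place of 4.5. This removal was chosen after the data were seen. Leaving out a gene with more control than knockdown peaks widens the difference by construction.

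**Figure D1:**
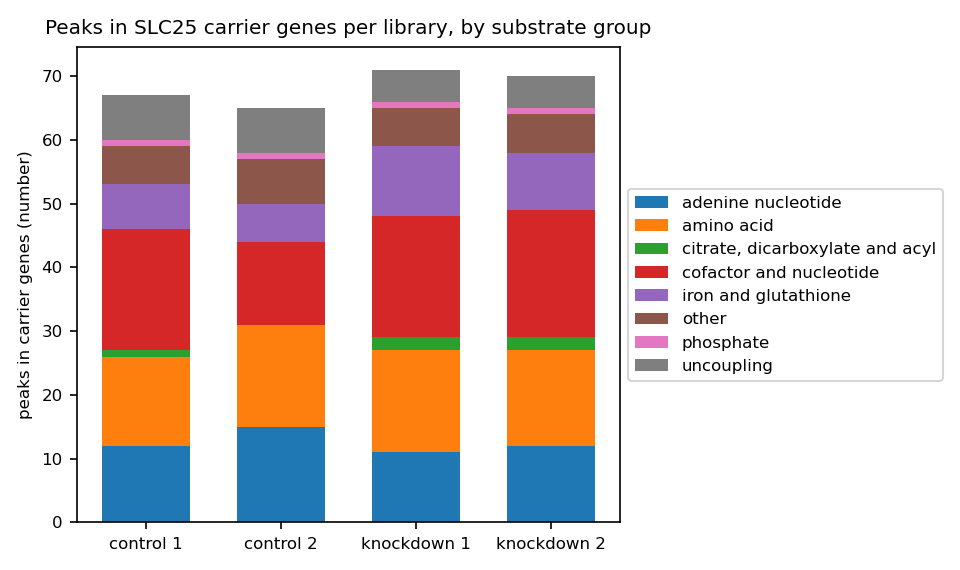
Peaks in SLC25 carrier genes (y axis, number of peaks) in each of the 4 libraries (x axis), stacked by the substrate group of the carrier. The totals were 67 and 65 in the control libraries and 71 and 70 in the knockdown libraries, and the uncoupling group had 7 peaks in each control library and 5 in each knockdown library.

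Over all 4 lists, 30 of the 50 carrier genes (60%) held at least 1 peak, against 53.6% of all protein-coding genes. The 20 carrier genes without a peak were SLC25A1, SLC25A2, SLC25A10, SLC25A12, SLC25A14, SLC25A15, SLC25A18, SLC25A20, SLC25A22, SLC25A31, SLC25A34, SLC25A35, SLC25A41, SLC25A42, SLC25A45, SLC25A47, SLC25A48, SLC25A52, UCP2 and UCP3. They included the citrate carrier SLC25A1, the carnitine/acylcarnitine carrier SLC25A20 and both uncoupling proteins taken in by name. Genes without a peak were shorter, with a median span of 8.77 kb against 33.5 kb for carrier genes with a peak, and the same order held over all protein-coding genes (14.7 kb against 34.7 kb). A gene without a peak can be one whose RNA is low in these cells, which peak lists do not measure.

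The 100 carrier loci fell into 38 found in all 4 lists, 15 shared by the control lists and absent from both knockdown lists (control-only), 12 shared by the knockdown lists and absent from both control lists (knockdown-only) and 35 in other combinations, of which 27 were in 1 list only. The share in all 4 lists was 38%, against 36.2% of the loci of all protein-coding genes. Of 54 carrier loci in both control lists, 15 (27.8%) were control-only, against 21.9% over all protein-coding genes. Of 56 carrier loci in both knockdown lists, 12 (21.4%) were knockdown-only, against 18.6%. These shares lay near the background and describe the members without setting them apart. A single gene, SLC25A24, held 7 of the 15 control-only loci. Without it, a removal chosen after the data were seen, 8 of 45 loci (17.8%) were control-only. A lower RNA level and a lower methylation of a gene cannot be told apart in peak lists, nor can fewer cells and less RNA per cell.

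**Figure D2:**
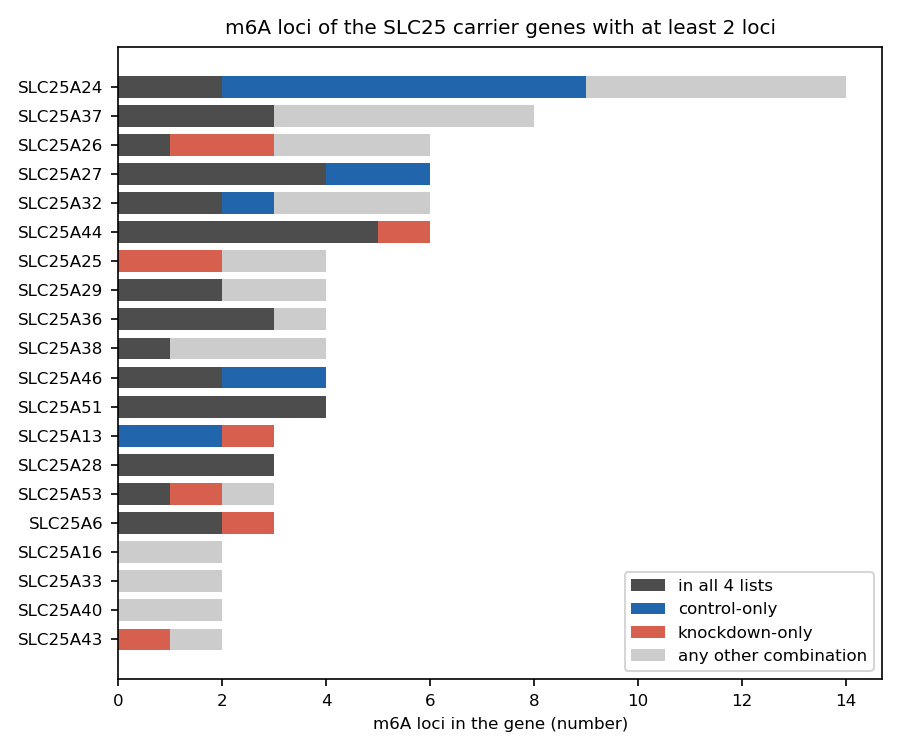
Number of m6A loci (x axis) in each of the 20 SLC25 carrier genes with at least 2 loci (y axis), coloured by the lists in which the locus was found. SLC25A24 had 14 loci, 7 of them control-only, while SLC25A44 had 5 loci in all 4 lists and SLC25A51 had 4.

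Among carrier genes whose loci included at least 1 shared by the control lists, 2 of 19 had only control-only loci there (10.5%, against 7.81% over all protein-coding genes), namely SLC25A13 and SLC25A17. Among those with at least 1 shared by the knockdown lists, 6 of 26 had only knockdown-only loci there (23.1%, against 8.99%), namely SLC25A13, SLC25A21, SLC25A23, SLC25A25, SLC25A39 and SLC25A43. The locus of SLC25A21 was on the strand opposite to the gene. Such shares also depend on loci per gene, with 100 loci in 30 carrier genes and 55872 in 10744 protein-coding genes with a peak. Counted by genes and not by loci, 6 of the 30 carrier genes with a peak held one in both knockdown lists and in no control list (20%, against 5.7% of all protein-coding genes with a peak). These were SLC25A21, SLC25A23, SLC25A25, SLC25A39, SLC25A40 and SLC25A43. The reverse was found for SLC25A17 alone (3.33%, against 4.75%). This count by gene was chosen after the values were seen, and no test is given for it.

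The carriers of adenine nucleotides, which exchange ADP, ATP and the ATP-magnesium complex, held loci in 6 of 8 genes and included loci of both kinds. Among the 3 calcium-regulated ATP-Mg/phosphate carriers with a calcium-binding domain, SLC25A24 had control-only loci and SLC25A23 and SLC25A25 had knockdown-only loci.

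SLC25A24, which adjusts the adenine nucleotide pool of the matrix in response to cytosolic calcium, lies on the minus strand of chromosome 1 from 108134043 to 108200343 (hg38). Its control-only loci, 7 in number, all lay in the interior of the gene, between 31.4 and 52.8 kb from the gene start (108147444 to 108168941). Folds there ran from 2.78 to 6.12 with a median of 3.51 in control replicate 1, and from 2.4 to 5.67 with a median of 3.51 in control replicate 2. The highest in control replicate 1 was at 108166304 to 108166873, with folds of 6.12 and 4.55, and the highest in control replicate 2 at 108165529 to 108166042, with 5.31 and 5.67, in the order of the control replicates. Neither knockdown list had a peak in that stretch. The gene also had 2 loci in all 4 lists, both outside this stretch, and 5 loci in 1 list each. Near the gene start, at 108199602 to 108200197, the folds were 2.86 and 2.34 in control and 4.62 and 8.20 in knockdown. At 108136403 to 108136851, which is 2541 bp from the gene end, they were 4.01 and 3.61 in control and 3.10 and 6.44 in knockdown. At the start locus both knockdown folds were above both control folds, and at the other the groups overlapped.

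SLC25A25, a relative of SLC25A24, lies on the plus strand of chromosome 9 from 128068232 to 128109245 and had no peak in either control list. Its knockdown-only loci lay at 128107299 to 128107552, with folds of 3.97 and 3.78 in the order of the knockdown replicates, and at 128108067 to 128108403, with folds of 2.52 and 4.95. Both were within 2000 bp of the gene end, and 2 further loci of the gene were in 1 knockdown list each. SLC25A23 had a single locus, between 6441564 and 6441894 of chromosome 19, with folds of 4.17 and 4.18 in the knockdown lists and no control peak.

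The ADP/ATP carriers, which export ATP made by respiration, showed another pattern. SLC25A5, the form of dividing cells, had 1 locus in all 4 lists (X chromosome, 119469534 to 119470018), with folds of 3.20 and 2.87 in control and 1.41 and 1.55 in knockdown. SLC25A6, which lies in the pseudoautosomal region, had a locus at 1389275 to 1389842 with folds of 5.60 and 3.97 in control and 1.85 and 1.70 in knockdown. A locus at its gene end (1386306 to 1386876) had folds of 3.19 and 2.72 against 2.19 and 2.37. In these 3 loci both control folds were above both knockdown folds. SLC25A6 also had a knockdown-only locus at 1387375 to 1387551 (folds of 2.42 and 2.29), and SLC25A4 had a single peak in knockdown replicate 2. These genes have processed copies elsewhere in the genome, so the assignment of their reads is uncertain. The phosphate carrier SLC25A3, which feeds ATP synthase, had 1 locus in all 4 lists, with folds of 2.52 and 2.37 in control and 3.58 and 3.54 in knockdown.

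**Figure D3:**
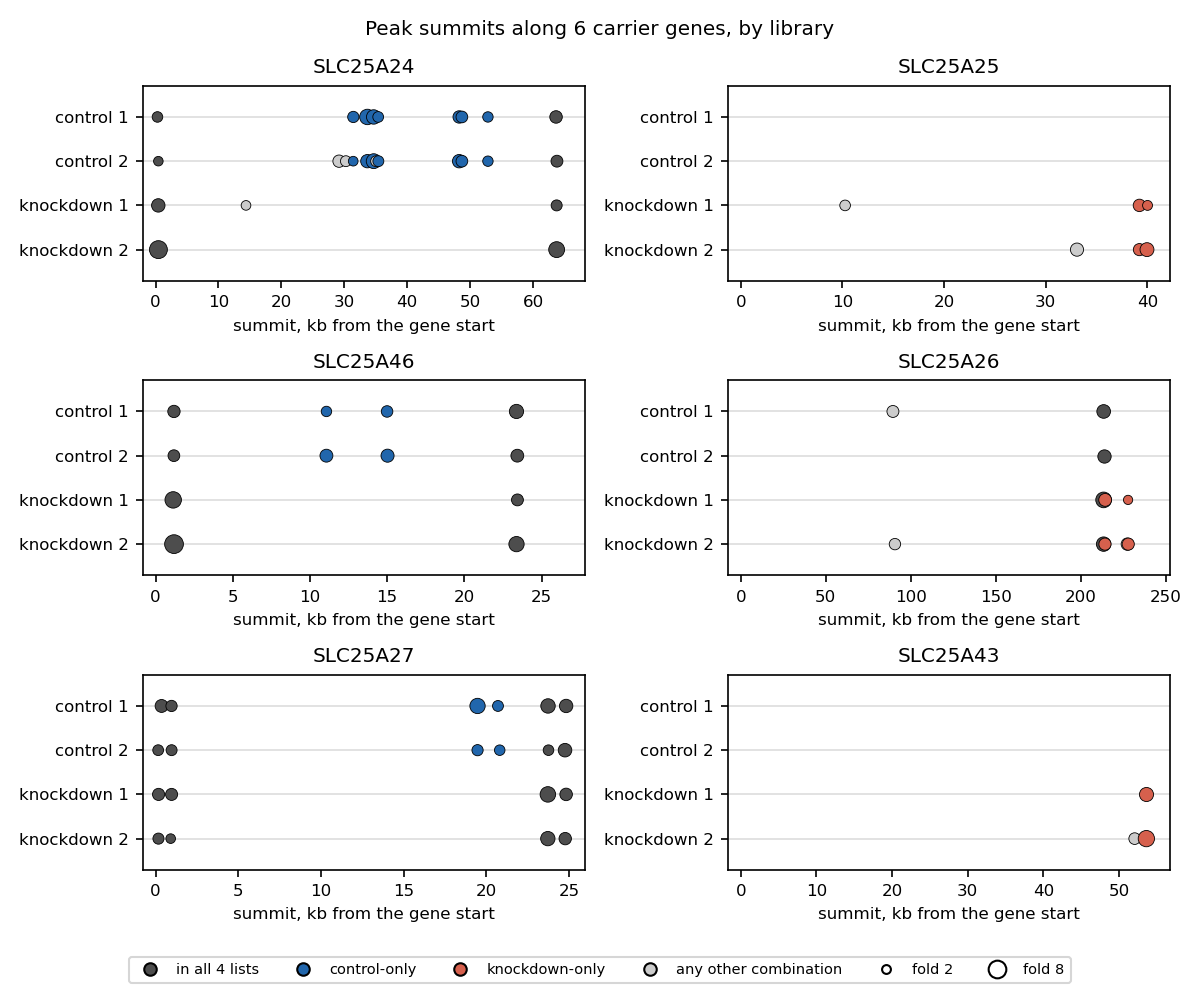
Peak summits along 6 carrier genes in the 4 libraries (rows), placed by their distance from the gene start in kb (x axis); the area of a point is proportional to its deposited fold enrichment and its colour gives the class of its locus. Control-only loci lie inside SLC25A24, SLC25A46 and SLC25A27 between loci found in all 4 lists, and SLC25A25 and SLC25A43 have no peak in the control libraries.

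Among the amino acid carriers 4 of 9 genes held loci. SLC25A44, which imports branched-chain amino acids, had 5 loci in all 4 lists along its plus-strand span on chromosome 1 (156194104 to 156212796). Its highest-ranked locus, at 156210189 to 156210750, had folds of 7.39, 7.32, 10.6 and 7.68 in control replicates 1 and 2 and knockdown replicates 1 and 2. The knockdown-only locus of this gene, at 156199053 to 156199208, had folds of 3.60 and 2.12. The locus at the gene start (156193982 to 156194726) had folds of 7.15 and 2.80 in control and 6.85 and 7.45 in knockdown, so that control replicate 2 stood below the other libraries.

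Peaks of the start locus of SLC25A44 reached upstream of the annotated gene start. The peak began 122 bases before the start in knockdown replicate 2, 92 bases before it in knockdown replicate 1 and 18 bases before it in control replicate 2, and after it in control replicate 1. The 250 bases before the gene start, from RefSeq (GRCh38.p14, plus strand, chr1:156193854-156194103), are shown because they let the upstream reach of the peak be read, and capitals mark the 122 bases covered by the locus.
SLC25A44: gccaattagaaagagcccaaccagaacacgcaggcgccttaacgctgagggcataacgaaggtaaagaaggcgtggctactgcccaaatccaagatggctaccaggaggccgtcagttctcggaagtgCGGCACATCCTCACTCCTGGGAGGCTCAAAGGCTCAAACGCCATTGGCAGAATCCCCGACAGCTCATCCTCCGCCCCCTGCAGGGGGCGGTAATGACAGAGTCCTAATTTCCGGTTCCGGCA
The letters GGAC, the core of the commonest m6A motif, did not occur on the gene strand of this window and occurred 1 time on the other strand. Over 34796 such windows of RefSeq genes, 59.0% held GGAC on the gene strand and 81.9% on either strand. The m6A antibody enriches fragments, so a methylated base can lie outside the window.

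SLC25A29, a carrier of basic amino acids, had 1 of the strongest loci of the family, at 100291152 to 100292692 on the minus strand of chromosome 14, with folds of 10.03 and 9.57 in control and 9.35 and 10.3 in knockdown. Its other locus in all 4 lists, at 100302672 to 100303661, had folds of 3.96 and 3.39 against 5.23 and 5.26. SLC25A38, which brings glycine to heme synthesis, had a locus 484 bp from its gene end (39396592 to 39397065, chromosome 3), with folds of 5.22 and 4.92 in control and 7.32 and 6.69 in knockdown.

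SLC25A13, the aspartate/glutamate carrier citrin of the malate-aspartate shuttle, had no locus in common between the groups. In control replicates 1 and 2 its folds were 3.21 and 2.80 at 96263644 to 96263956 and 3.71 and 2.66 at 96285036 to 96285312, on the minus strand of chromosome 7. In the knockdown replicates they were 3.59 and 3.56 at 96310191 to 96310362. All 3 loci were below the median fold of their list in every library that held them.

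Of the carriers of cofactors and nucleotides 8 of 10 genes held loci. SLC25A26, which imports S-adenosylmethionine, the methyl donor of m6A and of mitochondrial methylation, had 1 locus in all 4 lists on the plus strand of chromosome 3 (66346850 to 66347306), with folds of 4.77 and 4.55 in control and 6.29 and 5.31 in knockdown. Next to it, a knockdown-only locus at 66347683 to 66348234 had folds of 4.22 and 3.78. The other knockdown-only locus, at 66361329 to 66361622, had folds of 2.19 and 3.78. The gene held 2 and 1 peaks in control and 3 and 5 in knockdown.

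SLC25A51, which imports NAD, had 4 loci in all 4 lists and no other. Its strongest were at 37882268 to 37882804 (folds of 6.46 and 10.1 in control and 7.92 and 8.18 in knockdown) and at 37887524 to 37888701 (7.28 and 5.99 against 10.6 and 10.3), on the minus strand of chromosome 9. All 4 summits also lay in the span of the pseudogene PAICSP1. SLC25A36, a pyrimidine nucleotide carrier, had 3 loci in all 4 lists, with folds between 1.92 and 5.10.

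SLC25A32, a carrier of folate and FAD, had a control-only locus on chromosome 8 (103412478 to 103412838) with folds of 1.73 and 2.67, and loci in all 4 lists near its start and its end. At the end locus, 103399986 to 103400694, the folds were 5.14 and 4.27 in control and 4.87 and 8.77 in knockdown. SLC25A17, a carrier of the peroxisomal membrane, had a single, control-only locus on chromosome 22 (40817117 to 40817456), with folds of 2.56 and 1.79. They stood at percentiles 12.95 and 1.91 of their lists by fold.

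SLC25A16, linked to coenzyme A, had loci in control replicate 1 and both knockdown lists, but not in control replicate 2. The 2 loci of SLC25A16 had folds of 4.46 and 3.01 in control replicate 1. The same combination was found at the single locus of the oxoglutarate carrier SLC25A11 (folds of 3.46, 4.02 and 3.93). SLC25A33, a pyrimidine nucleotide carrier, had 2 peaks in knockdown replicate 1 and none elsewhere.

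All 4 genes of iron and glutathione transport held loci. SLC25A28, or mitoferrin 2, which delivers iron to the matrix, had 3 loci and all were in all 4 lists. At 99618597 to 99619963, on the minus strand of chromosome 10, its folds were 9.43 and 10.9 in control and 12.9 and 14.6 in knockdown. This peak ranked 693 and 119 by fold in control and 74 and 30 in knockdown. The paralog SLC25A37, or mitoferrin 1, had 3 loci in all 4 lists on chromosome 8, of which the strongest, at 23570773 to 23572480, had folds of 7.67 and 4.89 against 5.61 and 7.93. The mitoferrins had no control-only or knockdown-only locus.

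The glutathione carrier SLC25A39 had a knockdown-only locus 159 bp from its gene end on chromosome 17 (44319749 to 44319965), with folds of 2.06 and 3.51. Its relative SLC25A40 had 1 peak in each knockdown list, at different places, and none in the control lists.

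The uncoupling proteins and their relatives, some of which let protons leak across the inner membrane, held loci in 2 of 5 genes. SLC25A27, a relative of the uncoupling proteins, had 4 loci in all 4 lists and 2 control-only loci on the plus strand of chromosome 6. The control-only loci had folds of 6.004 and 3.21 at 46672095 to 46672533 and of 3.03 and 2.84 at 46673556 to 46673922, and their summits also lay in the span of the RNA gene TDRD6-AS1. The loci in all 4 lists stood on either side of them, near the start and the end of the gene. SLC25A30 had 1 locus, on chromosome 13 between 45395270 and 45396003, with folds of 3.16 and 2.32 in control and 6.55 and 7.65 in knockdown.

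The remaining carriers are less well characterised. SLC25A53, on the X chromosome, held the highest fold of all peaks in both control lists, at 104129972 to 104131337. Its fold of 18.2 ranked 1 of 45345 peaks in control replicate 1 and its fold of 16.5 ranked 1 of 47692 in control replicate 2. In the knockdown lists the folds of 17.3 and 14.6 ranked 2 of 44108 and 26 of 42969. A further, knockdown-only locus of the gene, at 104122102 to 104122255, had folds of 4.02 and 3.61.

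SLC25A46, which acts in the shape of mitochondria from their outer membrane, had 2 control-only loci on the plus strand of chromosome 5. Folds were 2.78 and 4.26 at 110748974 to 110749362 and 3.41 and 4.38 at 110752730 to 110753244. The locus 1197 bp from the gene start (110739210 to 110739421) had folds of 3.90 and 3.53 in control and 6.92 and 8.99 in knockdown, and the one at 110761295 to 110761804 had 5.18 and 4.21 against 3.62 and 5.98. The control-only loci of SLC25A46 lay between its 2 loci in all 4 lists. SLC25A43 had a knockdown-only locus 1512 bp from its gene end on the X chromosome (119452825 to 119453363), with folds of 5.09 and 6.80 and no control peak in the gene.

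SLC25A21, the oxodicarboxylate carrier, counted a knockdown-only locus by the rule (chromosome 14, 36678163 to 36678427; folds of 3.31 and 3.68). That locus was on the strand opposite to the gene, inside the span of PAX9, so it does not belong to RNA of the carrier's own strand.

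**Figure D4:**
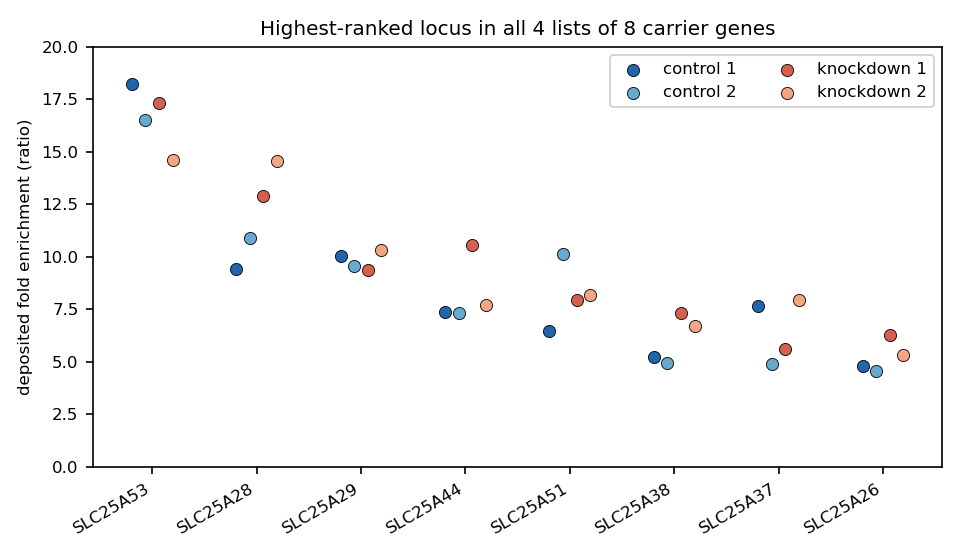
Deposited fold enrichment (y axis, ratio) of the highest-ranked locus in all 4 lists of 8 carrier genes (x axis), with 1 point per library. SLC25A53 lies between 14.6 and 18.2 in every library, and in SLC25A28 both knockdown points (12.9 and 14.6) lie above both control points (9.43 and 10.9).

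In these shared loci the position of a fold within its own list could be read. In 13 of 38 (34.2%) both knockdown percentiles were above both control percentiles, against 24.6% over all protein-coding genes. In 7 of 38 (18.4%) both control percentiles were higher, against 28.5%. The 13 included the locus of SLC25A24 near its gene start, the locus of SLC25A46 at 1197 bp from its start, and those of SLC25A30 and SLC25A3, and the 7 included those of SLC25A5 and SLC25A6. The lists differ in length, folds are the peak caller's values as deposited, and how the spike-in entered them is not given, so these orders do not show a change of methylation.

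Control-only and knockdown-only loci of the carriers differed in where they lay in the gene. All 15 control-only loci were in the interior, outside the first 500 bp and the last 2000 bp, against 85.9% of the control-only loci of all protein-coding genes. Of the 12 knockdown-only loci 6 were at gene ends (50%, against 14.3%), in SLC25A6, SLC25A21, SLC25A25, SLC25A39 and SLC25A43, and 1 of these, in SLC25A21, was on the opposite strand. The last 2000 bp is a large part of the short genes SLC25A6 (5962 bp) and SLC25A39 (5196 bp), and gene length was not adjusted for. Loci in all 4 lists were at gene ends in 8 of 38 cases (21.1%, against 14.4%) and at gene starts in 5 (13.2%, against 5.9%). Loci of 1 gene are not independent, SLC25A24 supplying 7 of the 15, so no test is given. Exons, introns and untranslated regions were not used here.

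**Figure D5:**
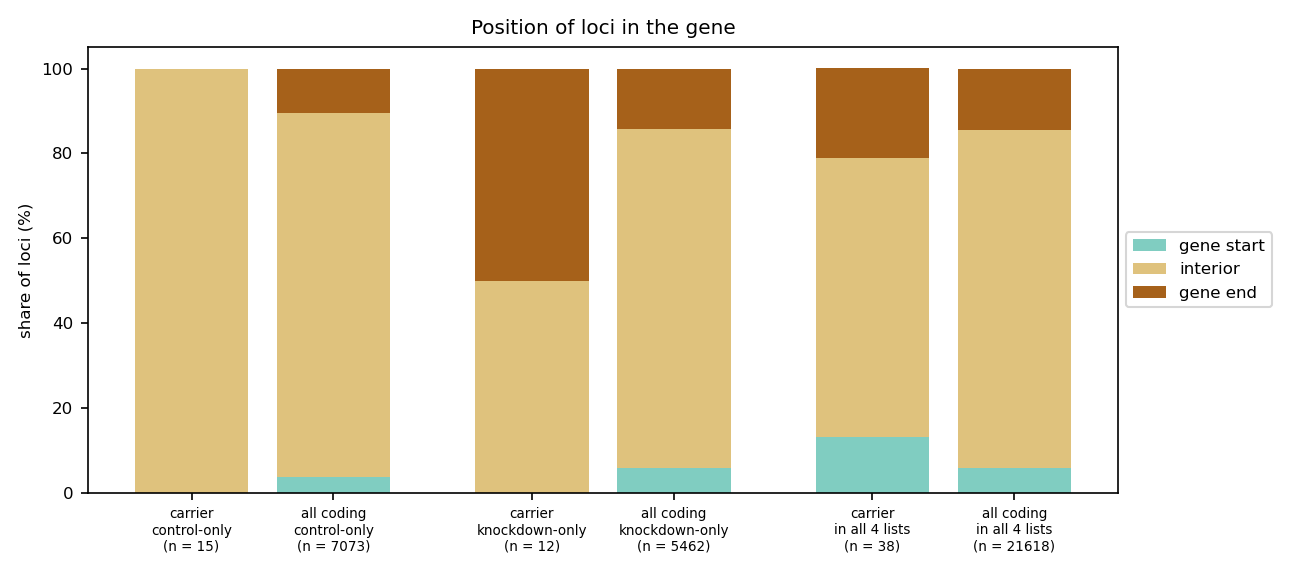
Share of loci (y axis, percent) at the gene start (first 500 bp), in the interior and at the gene end (last 2000 bp), for control-only loci, knockdown-only loci and loci in all 4 lists, in carrier genes and in all protein-coding genes, with the number of loci under each bar. All 15 control-only carrier loci are interior and 6 of 12 knockdown-only carrier loci are at gene ends.

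Peaks in carrier genes were wider than those of protein-coding genes in general. Their median widths were 339 and 360 bp in control and 300.0 and 309 bp in knockdown, against 252, 255, 265 and 266 bp. Their median folds were 3.71, 3.39, 3.76 and 3.88, against 3.84, 3.65, 3.92 and 3.93, so that carrier peaks were slightly below the others in every library. Control-only carrier loci had median folds of 3.26 and 3.05 in the control replicates, against 3.55 and 3.43 for all protein-coding genes. Knockdown-only carrier loci had medians of 3.60 and 3.73 in the knockdown replicates, against 3.72 and 3.72. Carrier loci in all 4 lists had medians of 4.38 and 3.95 in control and 4.74 and 5.29 in knockdown, against 4.34 and 4.13 and against 4.48 and 4.45. In each library the median of the loci of 1 group was below that of the loci in all 4 lists, in the carriers and over all protein-coding genes. When only peaks with a fold of at least 4 were counted, 2 of 19 loci in both control lists were control-only (10.5%, against 24.6% of all protein-coding genes). Both were in SLC25A24. In both knockdown lists 7 of 22 were knockdown-only (31.8%, against 27.3%). Of the knockdown-only loci named above, only those of SLC25A23 and SLC25A43 were among these 7. The others had control peaks with folds below 4, as in SLC25A30 (3.16 and 2.32).

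Other genes of mitochondrial transport gave these counts, from lists chosen with earlier results of these data known. The import machinery of carriers held peaks in 16 of 16 genes, with 3 of 18 loci control-only and 4 of 21 knockdown-only. TIMM22, the channel that inserts carriers into the inner membrane, had 2 of the control-only loci and AGK, a further subunit of that translocase, the other, while TOMM5, TOMM6 and TOMM22 of the outer membrane pore and TIMM10, a chaperone of the intermembrane space, each had 1 knockdown-only locus. That of TOMM5 was on the plus strand, and the 2 loci of TOMM5 in all 4 lists were on the minus strand. Other mitochondrial transporters held peaks in 19 of 22 genes, with 5 of 33 loci control-only and 4 of 30 knockdown-only. Among them ABCB6, a porphyrin transporter, had 2 control-only loci and MICU2, a regulator of the calcium uniporter, 2 knockdown-only loci. Regulators of mitochondrial biogenesis held peaks in 10 of 10 genes, with 2 of 31 loci control-only and 9 of 37 knockdown-only. TFAM, which packages and transcribes mitochondrial DNA, had 3 loci, all knockdown-only, and the coactivator gene PPARGC1A had 4 knockdown-only and 1 control-only locus. MTCH1 and MTCH2, outer membrane members of the superfamily, had no control-only or knockdown-only locus, and UCP1 had no peak. The background shares were the same 21.9% and 18.6% as above.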

How the data were processed

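m6A enrichment was analysed from 4 peak lists, 1 per library. Per the submitters' processing notes, the build was hg38, and the tools included MACS2 2.2.7.1 and SAMtools, with HISAT2 2.1.0 beside Bowtie2 2.4.2 and Trim Galore 0.6.6; their roles are not given. Peaks were called per library and per strand, per the peak names in the lists, which carry a knockout prefix in the knockdown lists where the labels say knockdown. The use of input and spike-in is not stated in these sources. The deposited fold enrichment is a ratio within each list, and the deposited p-value and q-value are −log10 values. The score in the deposited lists restates that q-value and was left aside. Each fold is the authors' own.

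Peaks were merged at 1 bp overlap on the same strand, and a locus belonged to each gene whose span held the summit of any of its peaks (RefSeq, GRCh38.p14), so positions over all genes count a locus in each of its genes. Gene strand came from the RefSeq promoter table for 42 of 50 members and from the loci for 2 more (at least 3 loci, 80% on 1 strand); the strand of the locus served for the others. Gene starts (500 bp), gene ends (2000 bp) and interiors were read from the span, gene ends first. Tests were exact permutation tests over libraries, in Python 3.11.15. Loci calling was tested on simulated lists.

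Members and lists were chosen with earlier results of these data known. Values in every library are given for members with a control-only or knockdown-only locus and for the 8 with the best locus in all 4 lists; the others are given by counts, apart from SLC25A3, SLC25A5, SLC25A11, SLC25A16, SLC25A30 and SLC25A36, whose values were added after they were seen. Of each other list, up to 2 genes with the most control-only and 2 with the most knockdown-only loci are named, ties included for the import machinery. Values of 1 member are not reported here; it remains in the counts.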

Additional observations from a re-analysis of the deposited data

How the results depend on the processing

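Mean peaks, carrier genes with a peak and covered length per library were higher in knockdown under each of the 11 alternatives run for each. The differences were 2.5 to 12 peaks, 4 to 9 genes and 1040 to 3814 bp. With a −log10 q of at least 20 the control and knockdown libraries overlapped in peaks and in covered length, but not in genes. The means there were 43 peaks and 22290.5 bp in control and 45.5 peaks and 23919.5 bp in knockdown (exact permutation p = 0.67 for each). The exact permutation test over 2 against 2 libraries cannot go below p = 0.33, so it passes no threshold of 0.05. Leaving out 1 library gave 3.5 to 5.5 peaks, 6 to 9 genes and 1040 to 2167 bp. Replicate numbers do not pair the samples by the labels (correlation of the deviations 0.03 over 10744 genes); with the replicate block the differences stayed at 4.5 peaks, 7.5 genes and 1603 bp (exact p = 0.5, the smallest possible). Control-only loci, 15 in all, numbered 2 with a fold of at least 4, both in SLC25A24, and 7 with a −log10 q of at least 20. They numbered 8 without SLC25A24, an alternative chosen after seeing the data. With reciprocal overlap of 50% they numbered 20 (37.0%, against 27.2% over all protein-coding genes). They were 15 to 19 with 1 library left out, where fewer lists have to agree. Knockdown-only loci, 12 in all, numbered 7 with a fold of at least 4. Of the 12, only those of SLC25A23 and SLC25A43 were among these 7, and the others had control peaks below that fold. Knockdown-only loci numbered 6 with a −log10 q of at least 20 and 16 with reciprocal overlap of 50% (28.1%, against 23.8% over all protein-coding genes). With 1 library left out they numbered 14 to 23. They were 23 without knockdown replicate 1 and 21 without knockdown replicate 2, where a peak in 1 list suffices by construction. Loci in all 4 lists, 38 in all, were 13 with a fold of at least 4. With 1 library left out, loci in all remaining lists were 39 to 44, where a peak in fewer lists suffices by construction. Carrier genes with only control-only loci, 2 in all, were 1 with a fold of at least 4. That gene was SLC25A24, as SLC25A13 and SLC25A17 had no control-only locus with both folds that high. Genes of this kind were 1 with a −log10 q of at least 20, 1 with lists of equal length and 4 with reciprocal overlap of 50%. With 1 library left out they were 2. Those with only knockdown-only loci, 6 in all, were 5 with a fold of at least 4. Of the 6, only SLC25A23 and SLC25A43 were among these 5. The others were SLC25A24, SLC25A30 and SLC25A46, whose control peaks at the locus concerned fell below that fold. Genes with only knockdown-only loci were 4 with a −log10 q of at least 20, 5 with own-strand peaks only and 5 with summits in no other gene. With reciprocal overlap of 50% they were 7, and with 1 library left out 6 to 9. Filters leave fewer peaks to count; the cause of the other differences was not tested. The read depth is unknown.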
